A study of Mus musculus with 4 samples.

Results

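Epithelial cells hold to each other and to their matrix through a small set of junction proteins, and the 29 genes described here encode such proteins together with proteases, sorting proteins and transcription and splicing factors that are typical of the same cells. The genes were chosen by name, as epithelial junction, adhesion, laminin, protease and transcription factor genes with the keratins left out. The rule itself uses no measured value, but the list was drawn up with earlier results of these data known. All 29 were found among the 23366 gene symbols of a table of RNA sequencing read counts from medullary thymic epithelial cells (mTECs). The mTECs came from wild-type C57BL/6 mice aged 6 to 8 weeks and no mouse had a treatment in the labels. There were 2 pools from females and 2 pools from males, each of sorted cells from 10 mice, so each sex is represented by 2 values and the spread between single mice cannot be seen. The sort kept live (PI-) CD45- MHCII+ Ly51low cells. The study compared the sexes to ask whether mTECs of males transcribe more tissue-specific antigens. The same libraries were compared here for the junction genes.

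Claudins and occludin seal the space between neighbouring cells at tight junctions, and the scaffold protein ZO-1 ties them to actin. Cadherins with their catenins form adherens junctions, desmosomes anchor keratin filaments at the cell border, and hemidesmosomes fix the basal side to laminin. In the thymus, Epcam is the usual surface marker of thymic epithelial cells, and Cldn3 and Cldn4 are used as markers of the mTEC lineage.

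Reads counted on genes ranged from 1976272 in female pool 2 to 7103627 in male pool 1, and a count of 0 allows up to 3 counts, or 0.358 to 1.48 normalized CPM by pool (counts scaled to a common library size). This limit covers counting error only. Xist followed the labels of sex, with 349 and 111 counts in the females against 7 and 18 in the males. Aire, which defines the mature mTEC, had 64 to 165 counts per pool. The transcripts of other cells were abundant in the sorted pools. Per length, the B-cell receptor component Cd79a averaged 1251 RPKM (normalized CPM divided by the exon length in kilobases) and the myeloid lysozyme Lyz2 1471 RPKM, against 49.3 RPKM for Krt8 and 42.3 RPKM for Krt18, the most abundant of the 10 mTEC markers. Ptprc, which encodes the CD45 that the sort gated out, averaged 42.2 RPKM. The endothelial markers differed widely. Over all pools together, the claudin Cldn5 had 1 count and Emcn had 0 counts, but Pecam1 had 371 and Esam 127. Fewer epithelial cells and less RNA per epithelial cell cannot be told apart in such bulk samples, for any gene below. How much of a gene's reads came from the other cells was not tested.

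RefSeq promoter windows, 250 bases before to 50 after an annotated start, were given for 15 of the 29 genes, and some genes had several starts, which made 18 windows (table build GRCm38.p6). Each window was placed in NCBIM37, the build of the counts, by an exact match of its letters. The E-box letters CACCTG, read on both strands, are those bound by the Snail and Zeb repressors of epithelial genes. They stood in 12 of the 18 windows (66.7%), in 11 genes, and in 20.2% of all 32851 windows of the same length. At least 2 matches stood in 8 of the 18 windows (44.4%), and in 2.88% of all windows. The member windows were also richer in G and C, with a median of 60.8% against 52.7%, and windows of the same gene can overlap, so the shares are given as a description with no test. The 250 bases upstream of the start are shown for Ap1m2, which held the most matches, for Spint2 and Epcam, which were among the 3 most abundant members, and for Cldn4, a marker of the lineage. All are written 5′ to 3′ on the strand of the gene, with each match to CACCTG or to its reverse complement CAGGTG in capitals.
Ap1m2 (chr9:21116778-21117027, NCBIM37, minus strand): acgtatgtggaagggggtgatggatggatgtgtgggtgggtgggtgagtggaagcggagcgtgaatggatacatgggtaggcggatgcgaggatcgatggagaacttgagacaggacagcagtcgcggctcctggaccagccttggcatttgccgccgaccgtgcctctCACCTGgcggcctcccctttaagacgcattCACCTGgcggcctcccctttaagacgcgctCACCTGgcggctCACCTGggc
Spint2 (chr7:30066997-30067246, NCBIM37, minus strand): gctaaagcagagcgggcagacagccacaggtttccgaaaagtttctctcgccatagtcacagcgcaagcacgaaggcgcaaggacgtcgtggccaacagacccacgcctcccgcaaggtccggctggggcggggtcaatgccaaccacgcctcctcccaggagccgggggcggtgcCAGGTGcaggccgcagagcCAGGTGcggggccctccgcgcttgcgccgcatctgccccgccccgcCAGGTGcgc
Epcam (chr17:88035069-88035318, NCBIM37, plus strand): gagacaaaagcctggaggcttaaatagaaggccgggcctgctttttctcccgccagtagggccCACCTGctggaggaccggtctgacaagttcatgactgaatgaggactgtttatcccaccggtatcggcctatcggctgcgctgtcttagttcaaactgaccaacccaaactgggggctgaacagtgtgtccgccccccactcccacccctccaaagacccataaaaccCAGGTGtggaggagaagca
Cldn4 (chr5:135422805-135423054, NCBIM37, minus strand): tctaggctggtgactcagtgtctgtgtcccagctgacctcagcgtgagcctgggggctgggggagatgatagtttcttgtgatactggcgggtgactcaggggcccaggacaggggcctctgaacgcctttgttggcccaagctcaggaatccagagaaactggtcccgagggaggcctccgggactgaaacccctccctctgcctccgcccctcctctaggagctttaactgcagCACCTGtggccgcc
In Ap1m2 the 4 matches began at -81, -51, -21 and -9 from the start, and the bases between the first and second match are nearly the same as those between the second and the third. In Spint2 they began at -74, -55 and -9, in Epcam at -187 and -19, and in Cldn4 at -14, with another match at 12 bases past the start that is not shown. The GC box GGGCGG, read on both strands, stood in 12 of the 18 windows (66.7%) and in 35.7% of all windows. The ETS letters CCGGAA stood in 4 windows (22.2%, against 14.9%), the AP-1 letters TGANTCA in 2 (11.1%, against 7.81%), the grainyhead letters AACCNGTT in the window of Rab25 only (5.56%, against 2.09%) and the TATA box TATAAA in 0 of 18, against 13.6%. No E-box match shared a base with a match of another motif. A match describes the letters of a window and does not show that a factor bound there.

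**Figure D1:**
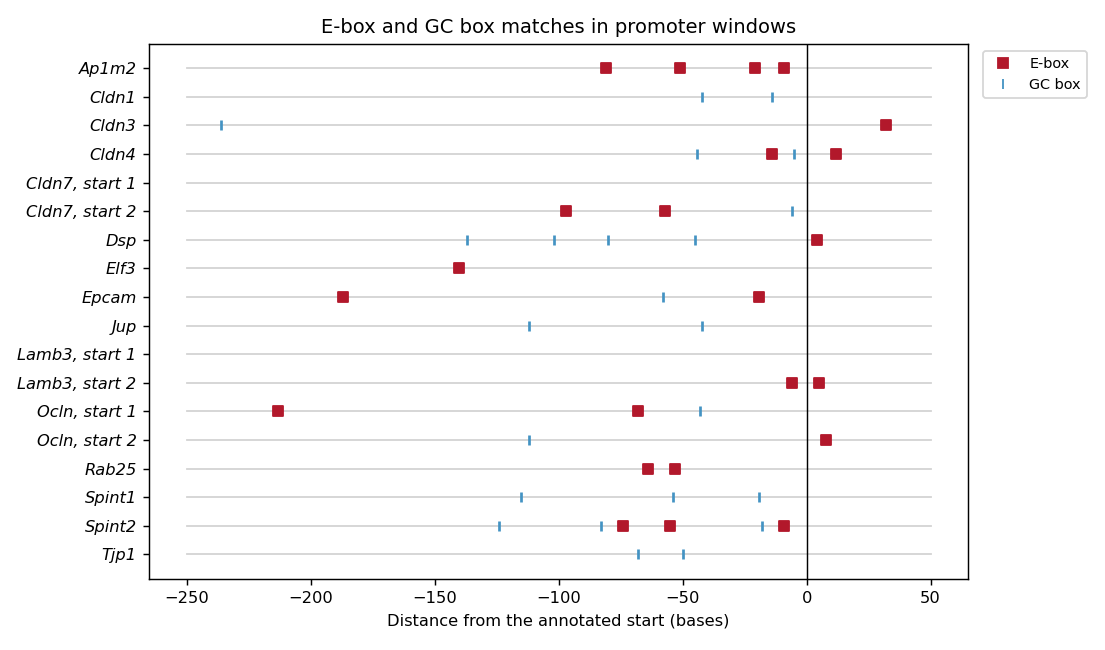
Each line is a promoter window of a member gene and the x axis is the distance in bases from its annotated start at 0. Red squares are starts of E-box matches and blue bars are starts of GC box matches. Ap1m2 has 4 red squares. The lines of Cldn1, Jup, Spint1 and Tjp1, and those of start 1 of Cldn7 and start 1 of Lamb3, have none.

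Levels were compared between genes per length, as RPKM over the 4 pools, and are those of all cells in a pool. The most abundant member was Spint2, a membrane-bound Kunitz inhibitor of serine proteases, with a mean of 185 RPKM and a range of 149 to 230 RPKM. Cldn1 followed with 46.8 RPKM (38.9 to 54.5), then Epcam with 21.5 (18.1 to 25.3), the related inhibitor Spint1 with 15.3 (10.4 to 19.9) and the plakophilin Pkp3 with 12.6 (10.6 to 14.1). The protease St14 had 6.68 RPKM, and the claudins Cldn7, Cldn3 and Cldn4 had 6.06, 5.39 and 3.82 RPKM. The cadherin Cdh1 had 2.51 RPKM, and the integrin Itga6 0.756 RPKM. Of the 28 pairs of neighbours in this order, only Spint2 over Cldn1, Cldn1 over Epcam and Pkp3 over St14 had ranges that did not overlap between pools, so the order of the rest is not fixed by these data. At the low end stood Cdh3, Grhl2 and Lama3 with means of 0.101, 0.088 and 0.032 RPKM, at or near the limit of the counts.

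**Figure D2:**
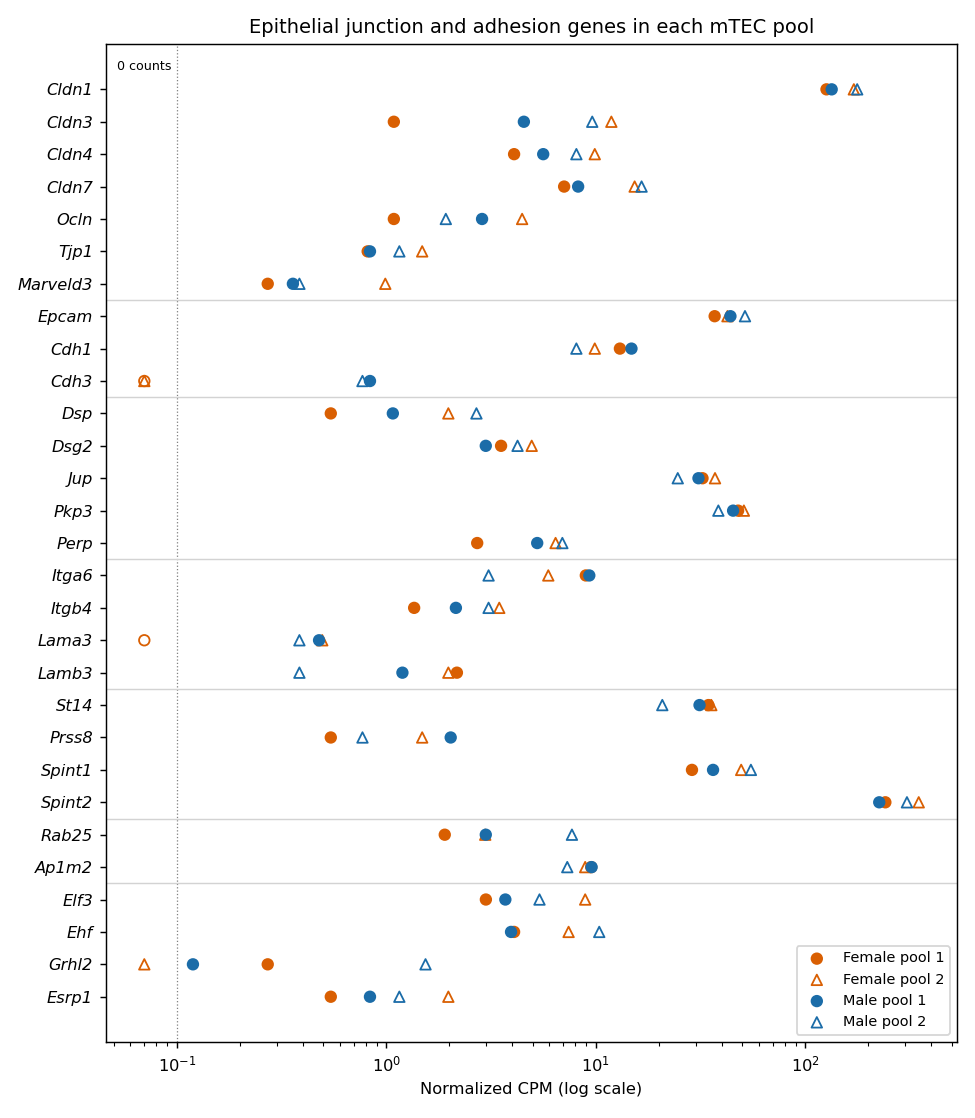
Normalized CPM (x axis, log scale) of the 29 genes in each pool, with a point per pool; females are orange, males blue, pools 1 filled and pools 2 open, and open points left of the dotted line stand for 0 counts. Spint2 and Cldn1 lie above 100 CPM in every pool, and the points of a sex do not gather for most genes.

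Between the sexes, none of the junction genes passed the test, and most had pools of both sexes in the same range. The filter on low counts kept 19 of the 29 genes (Tjp1, Marveld3, Cdh3, Dsp, Itgb4, Lama3, Lamb3, Prss8, Grhl2 and Esrp1 were below it). In edgeR's quasi-likelihood fit, 0 of the 19 members were called at a Benjamini-Hochberg adjusted p under 0.05 over all 10865 genes tested, as were 0 of all genes (0%). The adjusted p rounded to 1 for each member, and also for Xist with its log2 fold change of -4.57. At an unadjusted p under 0.05 there were also 0 members, against 48 genes of the table (0.442%). Among all genes DESeq2 called 3 and edgeR's exact test 8, with 0 members in each. From the same libraries the study lists genes higher in males at a false discovery rate under 0.05, some of them on the Y chromosome. The quasi-likelihood fit here called none of these. Without male pool 1 the quasi-likelihood test called 646 genes and without male pool 2 it called 70, again with 0 members. The median log2 fold change of male over female was -0.0073 for the 19 members and 0.027 for all genes tested, and 9 members were above 0. Leaving out a pool moved the members' median between -0.28 (without female pool 1) and 0.39 (without female pool 2). The members' standard errors ran from 0.30 to 0.98 on the log2 scale. Within pool number 1 the members' median difference was 0.18 (13 of 19 higher in the male pool), and within pool number 2 it was -0.28 (7 of 19). Both male pools lay above both female pools for 2 of 19 members, Epcam and Rab25 (10.5%, against 9.47% of all genes), and below them for 3 of 19, Pkp3, St14 and Jup (15.8%, against 11.7%). These orders are of normalized CPM. By library size only, Rab25 kept its order and the sexes overlapped for Epcam, Pkp3, St14 and Jup. The share of all genes was not counted under that scaling.

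**Figure D3:**
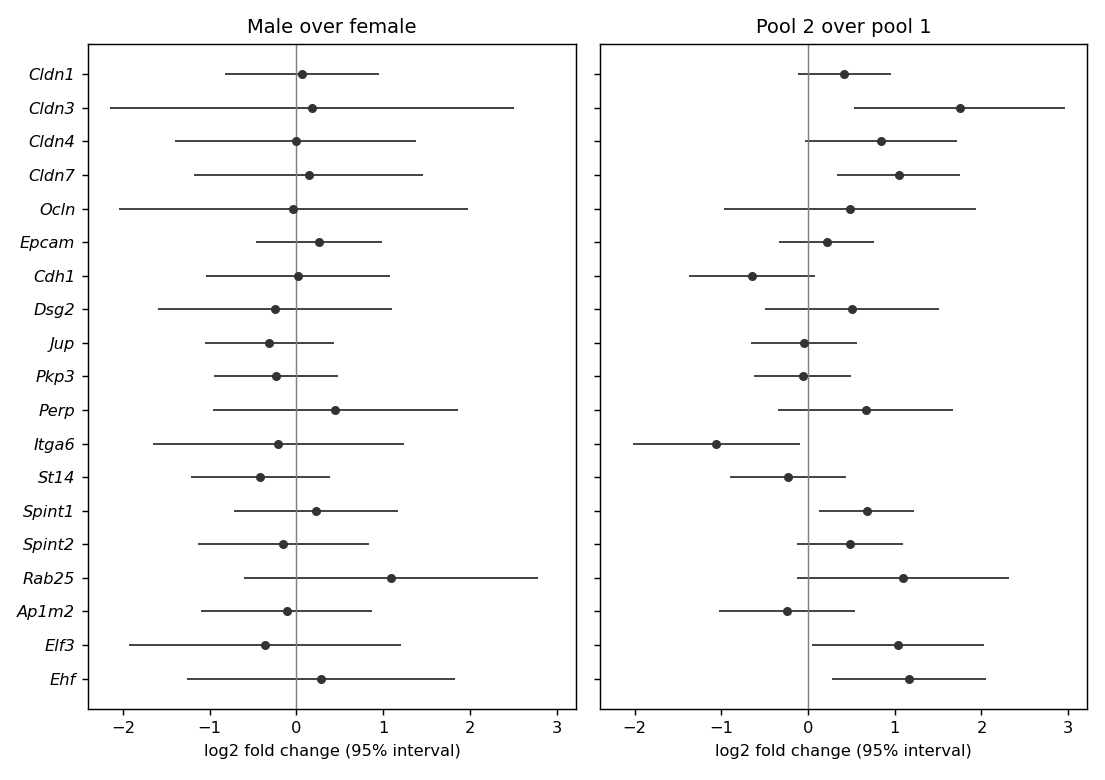
The log2 fold change (x axis) of each of the 19 tested genes, male over female on the left and pool 2 over pool 1 on the right, with 95% intervals from the quasi-likelihood fit as bars. All 19 intervals of the left panel include 0, and on the right those of Cldn3, Cldn7, Itga6, Spint1, Elf3 and Ehf do not.

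Of the tight junction genes, the claudins had the most counts. Cldn1, a claudin of stratified epithelia, had 465 and 345 counts in female pools 1 and 2 and 1120 and 460 counts in male pools 1 and 2, which are 126, 171, 134 and 177 normalized CPM. In normalized CPM the pools with the number 2 were the higher ones in both sexes, and the sexes overlapped. By library size only, male pool 2 was below male pool 1. Its log2 fold change of male over female was 0.07 (95% interval -0.82 to 0.95). Cldn3 had 4, 24, 38 and 25 counts in the same order, or 1.09, 11.9, 4.54 and 9.63 CPM. Female pool 1 was near the limit of the counts and male pool 1 was below both pools 2. Its log2 fold change was 0.18 between the sexes (-2.15 to 2.51) and 1.75 for pool 2 over pool 1 (0.53 to 2.97, adjusted p = 0.105). Cldn4, which lies beside Cldn3 on chromosome 5 (Cldn4 at 135420996 to 135422804 on the minus strand, Cldn3 at 135462084 to 135463342 on the plus strand, NCBIM37, each of a single exon block), had 4.08, 9.90, 5.62 and 8.09 CPM. Again both pools 2 were above both pools 1 in normalized CPM, though not by library size only. The log2 fold change of male over female was -0.01 (-1.40 to 1.38). Cldn7, a claudin that binds the Epcam protein, had 7.07, 15.3, 8.24 and 16.6 CPM, and it had the smallest adjusted p of any member for pool 2 over pool 1 (log2 fold change 1.04, 0.34 to 1.75, adjusted p = 0.0972). The log2 fold change of male over female was 0.14 for Cldn7 (-1.18 to 1.46). Occludin, the tetraspan protein of the tight junction strand encoded by Ocln, had 4, 9, 24 and 5 counts and a log2 fold change of -0.03 with a wide interval (-2.04 to 1.97). The scaffold gene Tjp1, which encodes ZO-1, had 3 to 7 counts per pool and Marveld3, a relative of occludin, 1 to 3. A difference in these 2 genes was not detectable at this depth.

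Epcam was measured with more precision. It had 136, 86, 368 and 134 counts, or 37.0 and 42.6 CPM in females against 44.0 and 51.6 CPM in males. In normalized CPM both male pools were above both female pools, 47.8 ± 5.39 against 39.8 ± 3.95 CPM (SD, n = 2 pools each). The gap between the closest pools of the sexes was smaller than the spread within either sex. The log2 fold change was 0.26 (-0.46 to 0.99), or 0.16 to 0.39 with a pool left out. By library size only, the pools of the sexes overlapped. Cdh1, which encodes E-cadherin, had 13.0 and 9.90 CPM in the females and 14.8 and 8.09 CPM in the males. The sexes overlapped, with a log2 fold change of 0.02 (-1.04 to 1.08), and both pools 2 were below both pools 1. Cdh3, which encodes P-cadherin and lies before Cdh1 on chromosome 8, had no count in either female pool, against 7 and 2 counts in males. The males' 0.836 and 0.770 CPM lie below the limit that a count of 0 allows in female pool 2, so a difference was not detectable at this depth.

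Desmosome genes spanned a wide range of levels, and none of the 4 tested passed the test between the sexes. Jup, which encodes plakoglobin, had 32.3 and 37.1 CPM in females, and 30.9 and 24.6 CPM in males. Pkp3 had 47.8 and 51.0 CPM in the females and 45.3 and 38.5 CPM in the males. In normalized CPM both males lay below both females for these 2 genes, though by library size only the sexes overlapped. The log2 fold changes were -0.31 for Jup (-1.06 to 0.44) and -0.23 for Pkp3 (-0.95 to 0.48). Without male pool 2 these were -0.15 and -0.12, and without male pool 1 they were -0.50 and -0.37. Perp, a tetraspan protein of desmosomes, had 2.72 and 6.43 CPM in females and 5.26 and 6.93 CPM in males, and the sexes overlapped (log2 fold change 0.45, -0.96 to 1.86). The desmosomal cadherin Dsg2 had 10 to 25 counts per pool and a log2 fold change of -0.24 (-1.59 to 1.10). Desmoplakin (Dsp), which joins the plaque to keratin, had only 2, 4, 9 and 7 counts.

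The laminin side was low, with 6.93 to 13.1 CPM per pool summed over its 4 genes. The 4 transcription and splicing factors summed to 7.88 to 18.5 CPM. Itga6, the alpha chain of the laminin receptor of hemidesmosomes, had 33, 12, 78 and 8 counts, or 8.97, 5.94, 9.32 and 3.08 CPM. Male pool 2 was lowest, and the fold change of -0.21 between the sexes on the log2 scale (-1.66 to 1.24) was well within the spread. Its partner Itgb4 had 5, 7, 18 and 8 counts. The laminin chain genes Lamb3 and Lama3 had 8, 4, 10 and 1 counts and 0, 1, 4 and 1 counts.

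The membrane protease St14 (matriptase) and its inhibitors were among the best-counted members. St14 had 34.5 and 35.6 CPM in females, and 31.3 and 20.8 CPM in males. In normalized CPM both males lay below both females, but the males differed from each other by more than the higher male did from the females. The log2 fold change was -0.41 (-1.22 to 0.39), or -0.16 without male pool 2 and -0.76 without male pool 1. By library size only, male pool 1 was not below the females. Spint1 had 28.8, 49.5, 36.3 and 55.1 CPM, with both pools 2 above both pools 1 and no separation of the sexes (log2 fold change of male over female 0.22, -0.72 to 1.17). By library size only, the male pools of Spint1 were nearly equal. Spint2 had 241 and 348 CPM in the females and 226 and 306 CPM in the males, also with overlap (-0.15, -1.13 to 0.84). Prss8 (prostasin), a protease of the same pathway, had 2, 3, 17 and 2 counts.

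Rab25, a small GTPase of recycling endosomes, had the largest difference between the sexes among the tested members. It had 7 and 6 counts in females and 25 and 20 in males, or 1.90 and 2.97 CPM against 2.99 and 7.70 CPM. Female pool 2 and male pool 1 were nearly equal, and male pool 2 alone was high. The log2 fold change was 1.09 (-0.61 to 2.79) and was 0.35 when male pool 2 was left out and 1.69 when male pool 1 was. Ap1m2, a subunit of the adaptor that sorts proteins to the basolateral side and the gene with 4 E-box matches in its promoter, had 9.51, 8.91, 9.56 and 7.32 CPM. The pools lay close together (5.08 ± 0.603 RPKM, SD over the 4 pools), and its log2 fold change was -0.11 (-1.10 to 0.87).

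Of the regulators, the ETS factors were counted and the others were near 0. Elf3 had 2.99, 8.91, 3.70 and 5.39 CPM, and Ehf had 4.08, 7.42, 3.94 and 10.4 CPM, each with both pools 2 above both pools 1 and with overlap of the sexes. By library size only, Ehf kept this order of the pools and Elf3 did not. The log2 fold changes of male over female were -0.36 for Elf3 (-1.93 to 1.21) and 0.29 for Ehf (-1.26 to 1.83). Grhl2, a grainyhead factor of junction genes, had 1, 0, 1 and 4 counts, and the splicing factor Esrp1 had 2, 4, 7 and 3. In the NCBIM37 annotation 2.01% to 8.1% of the exonic bases of Cldn3, Dsp, Dsg2, Itgb4, Prss8, Elf3, Grhl2 and Esrp1 lie in exons of another gene too. The sources used here give no strand setting, so reads there could belong to either gene.

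In normalized CPM the pools were ordered by pool number in many of these genes. The labels give the number as 1 or 2 in both sexes without saying what it stands for. Pool 2 over pool 1 is therefore a description of these 4 pools and not of a condition. Fitted by pool number alone, 221 of the 10865 genes (2.03%) passed an adjusted p of 0.05, 202 of them higher and 19 lower in pool 2, and 0 of 19 members did. With library size only as the scaling there were 764, of which 376 were higher and 388 lower. At an unadjusted p under 0.05, 5 of 19 members were higher in pool 2 (Cldn3, Cldn7, Spint1, Elf3 and Ehf; 26.3%, against 14.4% of all genes) and 1 of 19 was lower (Itga6; 5.26%, against 9.22%). In normalized CPM both pools 2 lay above both pools 1 for 10 of 19 members (52.6%, against 26.5% of all genes) and below them for 3, Cdh1, Itga6 and Ap1m2 (15.8%, against 29%). By library size only, Cldn3, Cldn7 and Ehf alone kept both pools 2 above both pools 1. Cdh1, Itga6 and Ap1m2 kept the reverse order. The share of all genes was not counted under that scaling. The members' median log2 fold change was 0.49, against -0.03 for all genes tested, and 13 of 19 were above 0. Scaling by library size only moved the members' median to 0.16 and that of all genes to -0.35.

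By role, all 5 tested tight junction genes were higher than 0 for pool 2 over pool 1 under each scaling tried (median log2 fold change 0.84), and the 2 tested transcription factors had a median of 1.10. The protease and its inhibitors had a median of 0.49. The 4 tested desmosome genes had a median of 0.23 and the 2 adherens junction genes one of -0.22, Epcam with 0.22 and Cdh1 with -0.65. Itga6 had -1.06 (-2.02 to -0.09, adjusted p = 0.178). With library size only as the scaling, Epcam had -0.12 and the signs of Cldn3, Cldn7, Spint1, Elf3, Ehf, Cdh1 and Itga6 were kept. With sex added to the quasi-likelihood fit, Cldn3 was called (adjusted p = 0.0274, log2 fold change 1.89), among 807 of 10865 genes. Without male pool 1 the log2 fold change of Cldn3 was 3.23. There pool number 1 rests on female pool 1 alone, with 4 counts of Cldn3, near the limit of the counts. Without female pool 2 the log2 fold change of Spint1 was 0.77, with male pool 2 alone as pool number 2.

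**Figure D4:**
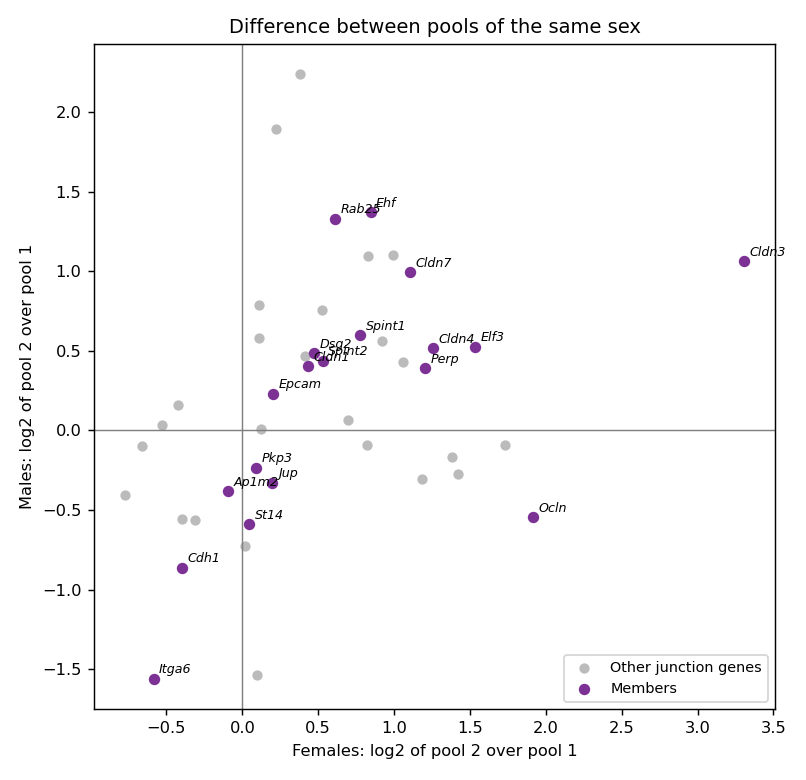
The log2 ratio of pool 2 over pool 1 in females (x axis) and in males (y axis) for the 19 tested members in purple, with names, and the 25 tested genes of the list of other junction genes in grey. Of the members, 12 lie in the upper right, 3 in the lower left and 4 (Ocln, St14, Jup and Pkp3) in the lower right. The ratios are of normalized CPM, and for several members the sign in males depends on the scaling.

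Summed over all 29 genes, the members made 615 and 846 CPM in females and 631 and 775 CPM in males. Spint2 and Cldn1 held more than the other 27 genes together, which had 247 and 327 CPM in the females and 272 and 292 CPM in the males. Both pools 2 were above both pools 1 in each sum. On the unscaled counts this did not hold in males, where the members took 0.0744% of the counts on genes in pool 1 and 0.0602% in pool 2, against 0.0645% and 0.0865% in the female pools.

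The summed levels of several marker lists were also ordered by the number of the pool, with no single marker past an adjusted p of 0.05 (lowest 0.0532, in the mTEC list). The 10 mTEC markers, which include Psmb11 and Ly75 of cortical epithelium, summed to 206 and 366 CPM in female pools 1 and 2 and to 232 and 388 CPM in male pools 1 and 2, so both pools 2 were the higher, and 7 of the 9 tested had a log2 fold change above 0. The 10 markers of dendritic cells and macrophages went from 2163 to 3547 CPM in females and from 1636 to 4668 CPM in males, with 7 of 10 above 0. The 8 B-cell markers were lower in both pools 2, with 4619 and 3028 CPM in females and 3812 and 2539 CPM in males, and all 7 tested were below 0. Thymocyte markers summed to 287 to 343 CPM in 3 pools and to 836 CPM in male pool 1. Cd3g, a T-cell receptor component, had 251 CPM there against 27.7 to 63.1 CPM in the other pools. The 8 fibroblast markers were lowest in female pool 1 (14.1 CPM, against 47.0 to 80.1 CPM) and the 8 endothelial markers had 28.1 to 41.0 CPM. Per length, the B-cell marker Cd79b had 382 RPKM, and the most abundant markers of myeloid cells after Lyz2 were Cd68 (156 RPKM) and Flt3 (53.9 RPKM). Cd80, next among the mTEC markers, had 11.6 RPKM. Cd3g, Lck and Cd8a led the thymocyte list with 88.4, 44.4 and 41.1 RPKM. Dcn, Col3a1 and Lum led the fibroblast list with 19.9, 0.776 and 0.707 RPKM, where Pdgfra had counts in male pool 1 only. Pecam1, Esam and Egfl7 led the endothelial list with 4.78, 2.97 and 0.788 RPKM. The part of these cell types in the members' values was not tested.

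**Figure D5:**
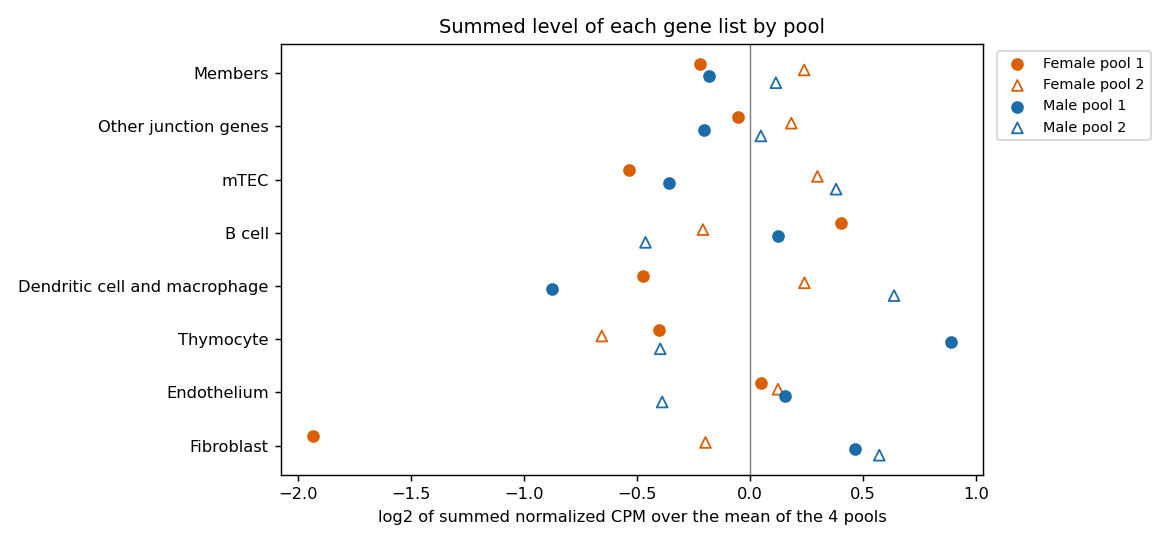
For each gene list (y axis), the log2 ratio of its summed normalized CPM in a pool to the mean of the 4 pools (x axis), with females orange, males blue, pools 1 filled and pools 2 open. Open symbols lie to the right of filled ones for the members, the other junction genes, the mTEC markers and the dendritic cell and macrophage markers, and to the left of them for the B-cell markers. On the unscaled counts the members and the other junction genes took a smaller share in male pool 2 than in male pool 1.

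A list of 56 other epithelial junction and adhesion genes was read beside the members, of which 55 matched a row of the table (Nectin2 did not) and 25 passed the filter. The most abundant per length were Lad1, which encodes the anchoring filament protein ladinin, with 41.0 RPKM, Ctnnb1, the beta-catenin of adherens junctions, with 26.0 RPKM, and F11r, a junctional adhesion molecule, with 25.0 RPKM. By the same quasi-likelihood test 0 of 25 were called between the sexes and 0 of 25 between pool numbers. At an unadjusted p under 0.05 there were 0 between the sexes, and 5 higher (20%, against 14.4% of all genes; Afdn, Dst, Lad1 and F11r among them) and 0 lower (against 9.22%) in pool 2. Between the sexes the median log2 fold change was -0.19, with 9 genes over 0 and 16 under, and both males lay above both females for 1 gene (4%, against 9.47% of all genes) and below for 6 (24%, against 11.7%). For pool 2 over pool 1 the median was 0.40, with 17 genes over 0 and 8 under, and both pools 2 lay above both pools 1 for 9 genes (36%, against 26.5%) and below for 2 (8%, against 29%). These orders are of normalized CPM and depend on the scaling. Lad1 had 98.7 and 187 CPM in females and 83.0 and 122 CPM in males, so both pools 2 were above both pools 1. By library size only, male pool 2 was not above male pool 1 for Lad1. Ctnnb1 had 144 and 116 CPM in females and 162 and 109 CPM in males, with both pools 2 below both pools 1. Among the genes of the list with few counts were all 7 desmosome genes, none of which passed the filter, with 0 to 16 counts per pool.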

How the data were processed

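The labels and the methods of the study state that low-quality reads were removed with Trimmomatic, reads were aligned to mm9 with TopHat2 and reads per gene were counted with HTSeq. The deposited values are raw counts per gene symbol for 2 female and 2 male pools, and the authors' versions, gene annotation and strand setting are not given in the sources used here. The libraries were made with the SMARTer Ultra Low kit, with no molecular identifiers described. The rows that hold reads not assigned to a gene (5 rows, 66.9% to 70.2% of a pool's sum) stayed out of library sizes and tests.

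From these counts, normalized CPM, log2 fold changes and tests were computed with edgeR 4.0.16 in R 4.3.3 (TMM normalization, with factors of 0.780 to 1.18; filterByExpr with a minimum count of 10; quasi-likelihood test; prior count 0.125; Benjamini-Hochberg adjustment over all 10865 genes tested at 0.05, two-sided). The common biological coefficient of variation was 0.349. DESeq2 1.42.0 was an alternative. All 4 pools entered each fit, with sex as the only term, or with pool number as the only term. The study's methods call the pools biologic replicates, each from 10 mice, so p-values measure the spread between pools and not between mice. A standard error is the ratio of a log2 fold change to the root of its F statistic, and the intervals are 95% intervals. RPKM used the union of annotated exons of NCBIM37, the same assembly as mm9. Gene names were matched to older symbols where needed (Patj as Inadl, Nectin1 as Pvrl1, Nectin4 as Pvrl4, Afdn as Mllt4, Adgre1 as Emr1). Python 3.11.15, pandas 2.3.3 and matplotlib 3.10.9 were used for the rest.

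The genes named are the 29 members, the 3 most abundant genes per length of each other list, those of the other junction genes called in either comparison, and Xist. Further genes (Aire, Psmb11, Ly75, Pdgfra, Ptprc, Cldn5, Emcn, Afdn, Dst) were named after their values were seen, and a few genes within these rules are not reported here. The members, lists and motifs were chosen with earlier results of these data known. The alternatives were other normalizations (upper quartile, DESeq2's size factors, library size only), no filter or over 1 CPM in at least 2 pools, DESeq2, edgeR's exact test and newer quasi-likelihood method, a replicate block, a prior count of 2 and each pool left out in turn.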

Additional observations from a re-analysis of the deposited data

Results flagged for a closer look

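For 4 of the 19 tested genes the difference between the 2 pools went opposite ways in the sexes, in log2 of pool 2 over pool 1 on normalized CPM. The share over all genes tested was not counted. The split depends on the scaling. By library size only, Epcam, Cldn1, Cldn4, Dsg2, Perp, Spint2 and Elf3 also rose in females and fell in males. With 1 pool per sex and number, the difference between the sexes could not be tested. Ocln had 1.92 in females and -0.55 in males, a male minus female difference of -2.46, on 4, 9, 24 and 5 counts. St14 had 0.05 in females and -0.59 in males (difference -0.63). Jup had 0.20 and -0.33 (difference -0.52), and Pkp3 had 0.09 and -0.23 (difference -0.32). In St14, Jup and Pkp3 male pool 2 was the lowest of the 4 pools.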

How the results depend on the processing

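With 2 pools per sex and 1976272 to 7103627 counts on genes, 10 of the 29 members were below the filter, and the calls over all genes moved with the fit. Between the sexes, 0 members were called under any alternative run, while calls over all genes were 0 in the fit reported and 5 when scaled by library size only, 26 without a filter, 3 with DESeq2, 8 with the exact test and 17 with the replicate block. They ranged from 0 to 646 with a pool left out. These fits leave an arm with a single pool, which is assumed to vary like the others. The members' median between the sexes ran from -0.28 to 0.39 when a pool was left out. Between pool numbers, calls over all genes were 221 and became 121 with DESeq2's size factors in edgeR, 764 when scaled by library size only, 1504 without a filter, 651 with DESeq2, 1138 with the exact test, 807 with the replicate block, and 174 to 2620 with a pool left out. Members called were 1 of 29 with no filter (Cldn3, against 1504 of 17866 genes) and 2 of 19 with the exact test (Cldn3 and Cldn7, against 1138 of 10865). With the replicate block 1 of 19 was called (Cldn3, against 807 of 10865). None of these shares of members was clearly above that of all genes. The members' median was 0.16 with library size only and 0.37 to 0.57 with a pool left out. The cause of these shifts was not tested.

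The pools of a sex share only a number with those of the other sex. The replicate block (sex and pool number both as terms) gave 17 genes between the sexes and 807 between pool numbers, and changed no other call of a member than Cldn3. The difference of pool 2 minus pool 1 correlated between the sexes across genes (Pearson's r = 0.52; genes are not independent replicates).

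Small differences between the sexes changed sign. Cldn4 had 0.0069 with DESeq2's size factors, 0.0028 with no filter, 0.0026 with DESeq2 and 0.095 with the block. Ocln had 0.18 and Cdh1 -0.0037 with the block. With library size only, Cldn1 had -0.055 and Cldn7 -0.014 between the sexes, and Epcam -0.12 between pool numbers. With a pool left out, 25 of 76 sex differences changed sign, in 14 genes. Their ranges were -0.14 to 0.32 for Cldn1, -0.79 to 2.66 for Cldn3, -0.55 to 0.74 for Cldn4, -0.38 to 0.80 for Cldn7, -0.84 to 1.17 for Ocln, -0.54 to 0.35 for Cdh1, -0.48 to 0.023 for Dsg2, -0.10 to 1.16 for Perp, -1.31 to 0.29 for Itga6, -0.12 to 0.68 for Spint1, -0.39 to 0.16 for Spint2, -0.35 to 0.055 for Ap1m2, -0.996 to 0.59 for Elf3 and -0.48 to 0.90 for Ehf. Between pool numbers, 4 of 76 changed sign, with ranges of -0.14 to 1.46 for Ocln, -0.33 to 0.23 for Jup, -0.24 to 0.13 for Pkp3 and -0.63 to 0.11 for St14.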
